A study of Mus musculus with 6 samples.

Results

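The genes described here are 10 genes of the response to oxidative stress that is governed by the transcription factor Nrf2: Nfe2l2, which encodes Nrf2 itself, Sqstm1, Gclc, Gclm, Gsr, Txnrd1, Srxn1, Prdx1, Nqo1 and Hmox1. They were chosen by symbol from a list of known members of this response, and all 10 had a row among the 15803 genes measured. The choice was made with earlier results of these data known. Counts set beside shares of all genes are therefore descriptions and not tests of the list. Growth plate cartilage of mouse embryos at E18.5 was the tissue, and its mRNA was sequenced to ask what follows the loss of Hnrnpk, an RNA-binding protein, in chondrocytes. The group labelled WT was Hnrnpk fl/fl and the group labelled CKO was Col2a1-Cre;Hnrnpk fl/fl, with 3 libraries in each. Both groups therefore carried the floxed allele, in which loxP sites flank exons of Hnrnpk, and Cre was present in the CKO group alone, driven by the Col2a1 promoter. That promoter is active in chondrocytes and also in perichondrium, so other cells of the dissected tissue need not carry the deletion. How many embryos went into each library is not stated, nor whether libraries came from separate embryos. The p-values below therefore measure the spread between samples, which may be technical.

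Nrf2 is kept scarce in resting cells because Keap1 brings it to a ubiquitin ligase, and oxidants or electrophiles that modify Keap1 let Nrf2 accumulate. It then pairs with small Maf proteins on antioxidant response elements and raises genes for glutathione synthesis, thioredoxin recycling, quinone reduction, haem breakdown and NADPH supply, while Bach1 competes for the same elements. Cartilage has no blood vessels, and its chondrocytes live at low oxygen, where the balance of oxidants bears on their growth and survival.

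Levels are given as CPM, the reads on a gene per 1000000 reads on all listed genes of a library. Totals were 1379674, 1332542 and 1183743 reads in the libraries labelled WT 1, 2 and 3 and 1454094, 1385468 and 1153871 reads in those labelled CKO 1, 2 and 3. At these depths 1 read was worth 0.688 to 0.867 CPM, and a count of 3 reads, taken as the floor below which no fold is given, stood at 2.06 to 2.60 CPM. The binomial interval and the floors below cover counting error only, because reads are not independent molecules, while confidence intervals of log2 fold changes come from the spread between libraries. Differences are log2 fold changes, CKO over WT, of log2(CPM + 1) from limma, with 1 model for each of the 12155 genes that averaged 1 CPM or more. Where values of a gene are listed, the 3 libraries of a label follow in the order 1, 2, 3, and "under WT" or "under CKO" means in the libraries so labelled. A gene is said to have risen or fallen when its p, adjusted over all those genes, was under 0.05. With 3 libraries against 3, an exact permutation test cannot give a p below 0.1.

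Hnrnpk (ENSMUSG00000021546, chr13:58391142-58403343, minus strand of GRCm38), the targeted gene, stood at 842, 955 and 944 CPM under WT and at 759, 949.9 and 780.0 CPM under CKO. The groups overlapped through CKO 2, whereas CKO 1 and CKO 3 lay below every library labelled WT. The difference was -0.14 ± 0.15 (SE), adjusted p = 0.622, and -0.25 (adjusted p = 0.226) without CKO 2, so the label of CKO 2 could not be read from this gene's total and those of CKO 1 and CKO 3 only by a small margin. In the annotation Hnrnpk has 3 near-identical copies, none with a row, and Rmi1 overlaps it on the other strand, so some reads may be shared. Reads on the floxed exons alone were not analysed here. The direction of each comparison rests on the labels.

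The library labelled CKO 2 stood apart from CKO 1 and CKO 3. Across genes, which are not independent replicates, Pearson's r was 0.965 between CKO 1 and CKO 3 but 0.924 and 0.921 between CKO 2 and these libraries. The library labelled WT 3 was also less like WT 1 and WT 2 (r of 0.937 and 0.938) than they were to each other (0.965). By a rule chosen after the values were seen, a gene was set apart in a library where that library exceeded each of the other 5 by more than 2 times, among the 6827 genes that averaged at least 10 CPM. CKO 2 was set apart in this way in 89 genes (1.3%), WT 3 in 99 (1.45%), WT 2 in 4 and the remaining libraries in 0. When the 10 CPM were asked of the mean of the other 5 libraries, an alternative added after the values were seen, the counts were 64 of 6769 genes for CKO 2 (0.945%) and 72 of 6761 for WT 3 (1.06%). Differences of the members are also given without CKO 2. Without WT 3 the log2 fold change was 0.17 for Gclc, 0.43 for Gsr, 0.39 for Nfe2l2, 0.52 for Sqstm1, 0.55 for Srxn1, 0.80 for Txnrd1, 1.18 for Prdx1, 1.34 for Nqo1 and 2.0 for Hmox1, and of these Prdx1 and Hmox1 passed.

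In the libraries labelled CKO, Hmox1, whose enzyme breaks down haem, rose 4.64-fold and Prdx1, which removes hydrogen peroxide, rose 2.04-fold, and these were the only members of the 10 whose adjusted p passed. Nqo1, Txnrd1 and Srxn1 stood out in CKO 2, at 2.54 to 4.34 times the mean of CKO 1 and CKO 3. That mean was 1.38 (Nqo1), 1.07 (Txnrd1) and 1.19 (Srxn1) times the mean of the libraries labelled WT. Gclc and Gclm, the members that act in glutathione synthesis, and Gsr, the glutathione reductase, were low in all 6 libraries and passed no test. Gss, glutathione synthetase, is outside the 10 and rose, as given below. Nfe2l2 and Sqstm1 were somewhat higher under CKO without passing. In the same libraries the summed level of 17 chondrocyte markers was 29833 ± 4149 CPM (SD, n = 3) under WT and 6870.1 ± 292 CPM (SD, n = 3) under CKO. In bulk RNA a change in the share of a cell type and a change in RNA per cell cannot be told apart.

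**Figure D1:**
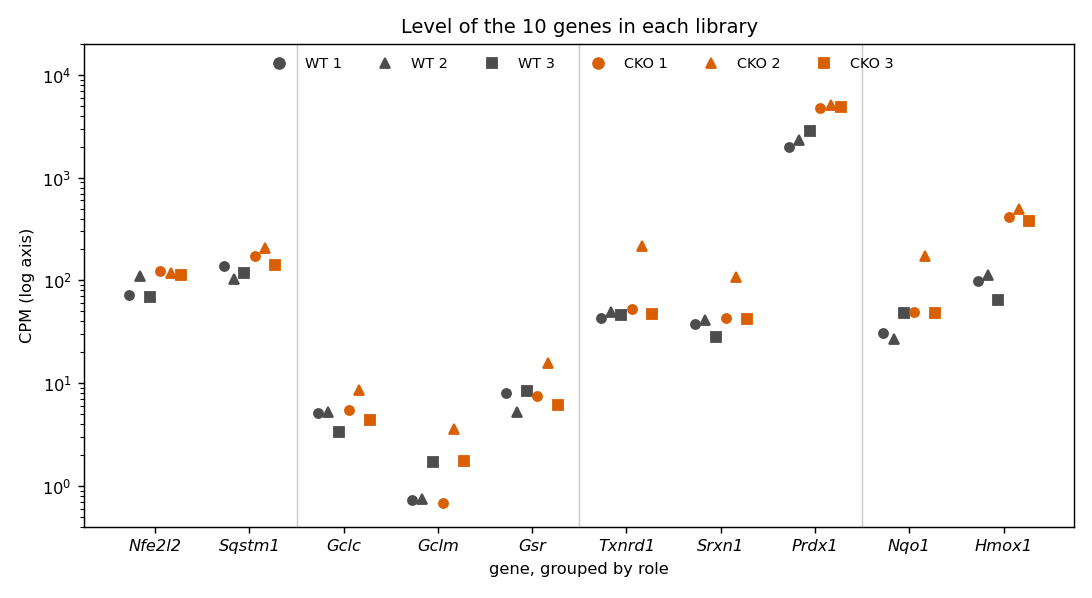
Level of the 10 genes in each library, in CPM on a log axis, ordered by role, with 1 point per library (grey for WT, orange for CKO, shapes for replicate numbers). Hmox1 and Prdx1 are higher in all 3 libraries labelled CKO, whereas Txnrd1, Srxn1 and Nqo1 stand out in CKO 2 (triangle) at 215, 108 and 173 CPM.

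Counted over the list, 2 of 10 members rose (Prdx1 and Hmox1), against 3.18% of the 12155 genes tested. With limma 0 members fell, against 2.6% of genes, and 0 were lower at an unadjusted p under 0.05, where 5 were higher, against 10.1% and 11.2% of genes. On the recovered reads, edgeR tested 8 members and called the same 2 higher and 0 lower, against 4.85% and 4.71% of its 7704 genes. DESeq2 tested 9 and called these 2 higher and 0 lower, against 3.21% and 2.81% of 10584 genes. Without CKO 2 the count was again 2 higher (Prdx1 and Hmox1) and 0 lower, where 5.74% of 12055 genes were higher and 5.03% lower. The 3 libraries labelled CKO lay above the 3 labelled WT without overlap in 6 members (Nfe2l2, Sqstm1, Srxn1, Prdx1, Nqo1 and Hmox1), a pattern found in 14.5% of all genes tested. The opposite order was seen in 0 members and 13.2% of genes, and 4 members overlapped. All 10 log2 fold changes were above 0, as were 6180 of the 12155 genes tested. The median of the members was 0.62 (0.71 without Gclm, which is near the floor), beside 0.01 over all genes. Without CKO 2 the median of the members was 0.33 and 9 of 10 were above 0, while the median of all genes was 0.00336 and 6050 of 12055 were above 0.

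By the study's own criterion, a log2 fold change beyond 1 in either direction with an unadjusted p under 0.05, 3 members were higher (Prdx1, Nqo1 and Hmox1) and 0 lower, against 5.3% and 5.1% of all genes. Which members met it depended on single libraries. Without WT 1 it was met by 1 member (Hmox1), without WT 2 or without CKO 2 by 2 (Hmox1 and Prdx1), and without CKO 3 by 4, with Txnrd1 as the added gene. Leaving out WT 3 or CKO 1 gave the same 3. The shares of all genes given above are those of the 6 libraries. Shares past this criterion with a library left out are not given here, so these counts are not set against them.

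Nfe2l2 (ENSMUSG00000015839, chr2:75675513-75704641, minus strand) encodes Nrf2, whose activity is set mostly by the stability of the protein. Its level was 72.5, 111 and 69.3 CPM under WT and 124, 118 and 112 CPM under CKO. The libraries labelled CKO were close together and all above WT, but CKO 3 exceeded WT 2 by little, and WT 1 and WT 3 were the low ones. The log2 fold change was 0.51 ± 0.21 (SE), adjusted p = 0.189, and it was 0.51 (adjusted p = 0.165) without CKO 2. Among the 10 members Nfe2l2 alone did not have its highest value in CKO 2.

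Sqstm1 (ENSMUSG00000015837, chr11:50199366-50210827, minus strand) encodes p62, an autophagy receptor that binds Keap1 and so spares Nrf2, and whose own gene is an Nrf2 target. It stood at 139, 103 and 118 CPM under WT and at 174, 205 and 141 CPM under CKO. CKO 2 was highest, CKO 3 lay just above WT 1, and the groups did not overlap. The difference was 0.52 ± 0.19 (SE), adjusted p = 0.152, and 0.39 (adjusted p = 0.195) without CKO 2. The gene Mrnip overlaps Sqstm1 on the other strand.

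Gclc (ENSMUSG00000032350, chr9:77754535-77794485, plus strand) encodes the catalytic subunit of glutamate-cysteine ligase, which makes the first and limiting step of glutathione synthesis. It stood at 5.07, 5.25 and 3.38 CPM under WT and 5.50, 8.66 and 4.33 CPM under CKO, or 4 to 12 reads. The groups overlapped and CKO 2 was the highest. Its log2 fold change was 0.34 ± 0.40 (SE), adjusted p = 0.681, with a 95% confidence interval of -0.55 to 1.22, and it was 0.10 (adjusted p = 0.915) without CKO 2. Gclm (ENSMUSG00000028124, chr3:122245557-122270732, plus strand), the modifier subunit of the same enzyme, had 1, 1 and 2 reads under WT and 1, 5 and 2 reads under CKO. Of these, only CKO 2 lay above the floor. Summed, 4 reads under WT stood against 8 under CKO, a ratio per library size of 1.95 with a 95% exact binomial interval of 0.523 to 8.85. Without CKO 2 the same 4 reads stood against 3, a ratio of 1.12 with an interval of 0.164 to 6.62. Gm17494 on the other strand and Gm6061 on the same strand overlap Gclm, so some of these few reads may belong elsewhere.

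Gsr (ENSMUSG00000031584, chr8:33652523-33698163, plus strand) encodes glutathione reductase, which uses NADPH to return oxidised glutathione to its reduced form. It stood at 7.97, 5.25 and 8.45 CPM under WT and at 7.56, 15.9 and 6.07 CPM under CKO. Apart from CKO 2 the libraries of both labels covered the same range. The difference of 0.32 ± 0.41 (SE), adjusted p = 0.711, turned to -0.06 (adjusted p = 0.948) without CKO 2. Both values lay well inside the interval of the former, -0.60 to 1.23.

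The thioredoxin members are shown first by their promoters, because Prdx1 was high in all libraries labelled CKO while Srxn1 and Txnrd1 stood out in 1 of them. Windows from 250 bases before to 50 bases after the start, from RefSeq on GRCm38.p6, were found for 7 of the 10 members (9 windows, 3 of them of Txnrd1), and not for Hmox1, Gclc and Gsr. Both strands were searched for TGACNNNGC, the core of the antioxidant response element, and for TGAGTCA, a motif bound by AP-1, whose letters can overlap the former. Of 32851 windows of the same length, 12.4% held TGACNNNGC, 5.2% held TGAGTCA and 0.947% held both. Among the members TGACNNNGC was in 5 windows, those of Nfe2l2 (240 bases before the start), Gclm (134), Prdx1 (133), Srxn1 (29 bases after the start) and 1 of Txnrd1 (92 before it), and TGAGTCA was in 2, those of Prdx1 and Srxn1. The windows of Nqo1 and Sqstm1 and the other 2 of Txnrd1 held these letters on neither strand. Sequence outside the windows was not searched, so absence here does not show that a gene lacks the element. A match is a description of the letters and not evidence of a bound site. The stretches below lie at chr4:116685349-116685494, chr2:152105402-152105505 and chr10:82859094-82859142, are written 5′ to 3′ on the plus strand, which is the strand of all 3 genes, and carry the matches before the start in capitals. The second capital run of Prdx1 is both motifs at once, since a TGAGTCA 131 bases before the start lies inside a TGACNNNGC read on the reverse strand. The stretch of Txnrd1 is inside an intron of longer Txnrd1 transcripts.
Prdx1: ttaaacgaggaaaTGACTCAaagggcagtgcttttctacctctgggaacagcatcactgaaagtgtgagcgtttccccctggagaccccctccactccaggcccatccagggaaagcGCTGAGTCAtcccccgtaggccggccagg
Srxn1: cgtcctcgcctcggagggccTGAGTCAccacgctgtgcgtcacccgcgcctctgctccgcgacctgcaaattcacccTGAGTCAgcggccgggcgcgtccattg
Txnrd1: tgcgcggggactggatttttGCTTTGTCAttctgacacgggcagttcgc

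Txnrd1 (ENSMUSG00000020250, chr10:82833951-82897712, plus strand) encodes the cytosolic thioredoxin reductase, which passes electrons from NADPH to thioredoxin. It stood at 43.5, 48.8 and 46.5 CPM under WT and at 52.3, 215 and 46.8 CPM under CKO. CKO 2 was 4.12 times the next highest library, while CKO 3 lay within the range of the libraries labelled WT. The log2 fold change was 0.80 ± 0.47 (SE), adjusted p = 0.361, and 0.10 (adjusted p = 0.798) without CKO 2, with an interval of -0.32 to 0.52.

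Srxn1 (ENSMUSG00000032802, chr2:152105516-152111376, plus strand) encodes sulfiredoxin, which repairs peroxiredoxins that peroxide has over-oxidised. Its level was 37.7, 41.3 and 27.9 CPM under WT and 42.6, 108 and 42.5 CPM under CKO. CKO 1 and CKO 3 lay barely above WT 2, and CKO 2 was 2.54 times the next library. The log2 fold change of 0.71 ± 0.35 (SE), adjusted p = 0.272, became 0.27 (adjusted p = 0.506) without CKO 2. The promoter stretch of Srxn1 printed above carries TGAGTCA at 2 places, as does that of Prdx1.

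Prdx1 (ENSMUSG00000028691, chr4:116685544-116700822, plus strand) encodes peroxiredoxin 1, an abundant cytosolic enzyme that reduces hydrogen peroxide with electrons from thioredoxin. It stood at 1987, 2339.9 and 2864 CPM under WT and at 4724, 5097 and 4855 CPM under CKO. All libraries labelled CKO lay close together, and the lowest of them was far above WT 3, the highest labelled WT. The means were 2397 ± 441 CPM (SD, n = 3) under the label WT and 4892 ± 189 CPM (SD, n = 3) under the label CKO. Prdx1 rose by 1.04 ± 0.16 (SE), adjusted p = 0.00548, with a 95% confidence interval of 0.69 to 1.40. Without CKO 2 the difference was 1.01 (adjusted p = 0.00247), and over 13 alternatives it lay between 0.92 and 1.18 with adjusted p between 1.84e-05 and 0.0417. In the annotation Prdx1 has 3 near-identical copies (at least 90% identity over at least 300 bases), none with a row among the genes measured, and reads shared with them could not be separated.

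Nqo1 (ENSMUSG00000003849, chr8:107388225-107403206, minus strand) encodes a quinone reductase that is widely used as a marker of Nrf2 activity. It stood at 30.4, 27.0 and 48.2 CPM under WT and at 48.8, 173 and 48.5 CPM under CKO. CKO 1 and CKO 3 were level with WT 3 (higher by less than 1 CPM), and CKO 2 was 3.53 times the next library. The difference was 1.10 ± 0.44 (SE), adjusted p = 0.184, and 0.50 (adjusted p = 0.258) without CKO 2. Over 13 alternatives the adjusted p ranged from 0.058 to 0.408, so the gene passed under 0 of them.

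Hmox1 (ENSMUSG00000005413, chr8:75093621-75100589, plus strand) encodes haem oxygenase 1, which opens haem and frees iron, carbon monoxide and biliverdin, and whose gene answers to Nrf2, to Bach1 and to several other stress pathways. Its level was 97.8, 113 and 65.0 CPM under WT and 415, 491 and 376 CPM under CKO. Each library labelled CKO was more than 3 times the highest labelled WT, and CKO 2 was the highest by a small margin. The means were 92.1 ± 24.6 CPM (SD, n = 3) under the label WT and 427 ± 58.4 CPM (SD, n = 3) under the label CKO. Hmox1 rose by 2.23 ± 0.22 (SE), adjusted p = 6.54e-04, with a 95% confidence interval of 1.75 to 2.71. Without CKO 2 the difference was 2.13 (adjusted p = 2.69e-04). Over 13 alternatives it lay between 2.0 and 2.40, with adjusted p between 8.81e-15 and 0.00739.

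**Figure D2:**
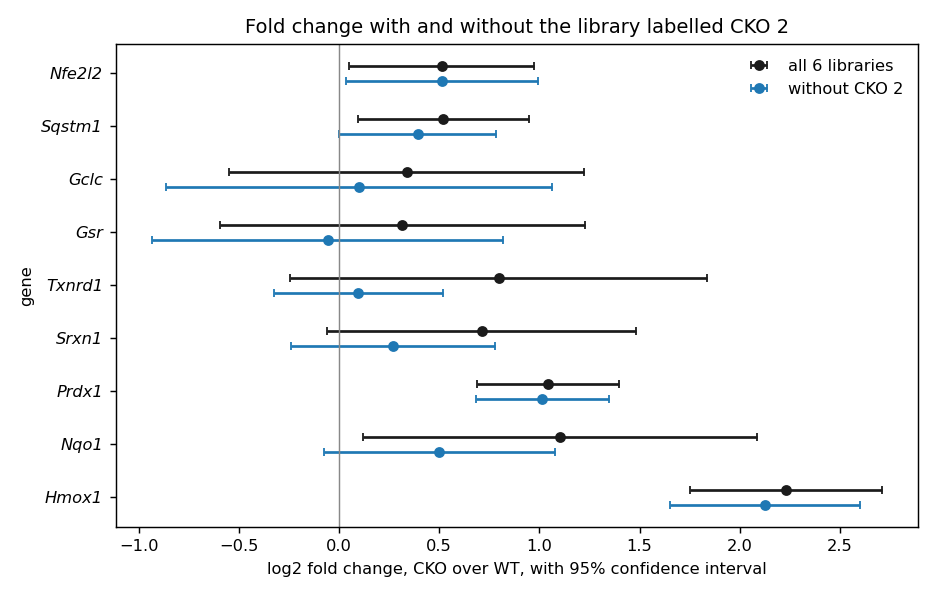
Log2 fold change, CKO over WT, with its 95% confidence interval for 9 members, from all 6 libraries (black) and without the library labelled CKO 2 (blue), with Gclm left out because of its few reads. Hmox1 moves from 2.23 to 2.13 and Prdx1 from 1.04 to 1.01, whereas Txnrd1 moves from 0.80 to 0.10 and Nqo1 from 1.10 to 0.50.

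The log2 ratio of Hmox1 to each other member was taken within a library, where library size cancels. Since the log2 fold change of Hmox1 exceeded those of the 9 others, a higher mean ratio under CKO follows from it and is no separate evidence. The values of the ratio did not overlap between groups for 6 of the 9. Hmox1 itself did not overlap between groups. The share of such ratios over all genes is not given here, so this count is not set against one. The ratio to Prdx1 was -4.72 ± 0.64 under WT and -3.53 ± 0.16 under CKO (SD, n = 3), a difference of 1.20 (exact permutation p = 0.1, two-sided, adjusted over 9 ratios 0.15), and of 0.83 without WT 3. The ratio to Nfe2l2 differed by 1.73 and that to Sqstm1 by 1.72 (exact p = 0.1 and adjusted 0.15 for each). The ratios to Gclm, Txnrd1 and Nqo1 overlapped, and CKO 2 was the lowest library labelled CKO in each of them. For Nqo1 the difference was 1.12 (exact p = 0.3, adjusted 0.3), and it was 1.62 without CKO 2, 0.64 without WT 3, 0.84 without CKO 1 and 0.90 without CKO 3. No ratio could pass at this number of libraries.

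Differences of CKO 2 from its group ran through most of the list. CKO 2 held the highest value of 9 of the 10 members, as it did for 22.4% of all genes tested. Over the mean of CKO 1 and CKO 3 it stood at 4.34 times for Txnrd1, 3.54 for Nqo1, 2.54 for Srxn1 and 2.33 for Gsr, but at 1.24 for Hmox1 and 1.06 for Prdx1. By the rule given above it was set apart in 3 of the 7 members that averaged at least 10 CPM (Txnrd1, Srxn1 and Nqo1) and in 2 of 88 other pathway genes (Mafk and Gstp2), against 1.3% of the 6827 genes. Mafk reached a mean of 10 CPM only through CKO 2, and with the limit on the other 5 libraries the counts were 3 of 7 members and 1 of 88 (Gstp2), against 0.945%. Below each of the other 5 libraries by more than 2 times, CKO 2 had Gpx3, Gstm2, Gstt1 and Idh1 of the pathway genes and 155 genes in all (2.27%). With 1 such library this is a description and was not tested.

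**Figure D3:**
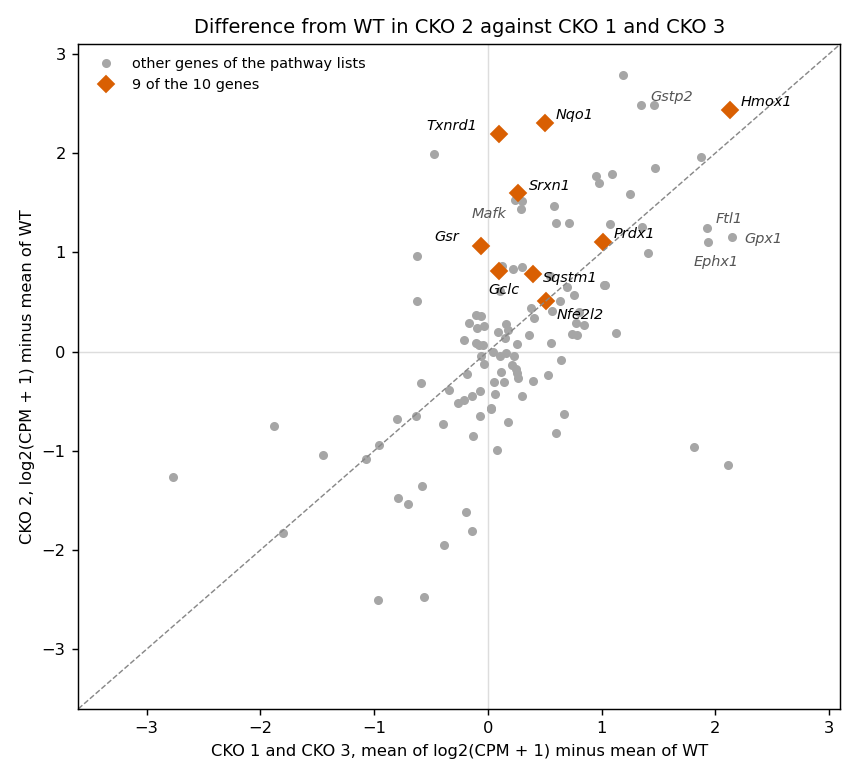
Each point is 1 gene, placed by its difference from the mean of the libraries labelled WT in log2(CPM + 1), in CKO 1 and CKO 3 (mean, horizontal axis) and in CKO 2 (vertical axis), with 9 members in orange, other pathway genes in grey and the dashed line at equal differences. Txnrd1, Nqo1 and Srxn1 lie far above the line, Hmox1, Prdx1 and Nfe2l2 lie near it, and Gpx1, Ftl1 and Ephx1 lie below it.

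To compare levels between genes, CPM was divided by the length of the merged exons in kb. Under the label WT, Prdx1 was the most abundant member at 788 CPM per kb, followed by Hmox1 at 52.6, Sqstm1 at 35.8, Nqo1 at 22.7 and Nfe2l2 at 22.2 CPM per kb. From Hmox1 down to Nfe2l2, each gene's range over libraries overlapped that of the next. Srxn1 at 12.6, Txnrd1 at 6.53, Gsr at 2.62, Gclc at 1.21 and Gclm at 0.168 CPM per kb followed with ranges apart. Under the label CKO, Prdx1 at 1608 and Hmox1 at 244 CPM per kb kept the first places, and the range of Hmox1 now lay above that of each gene after it. Nqo1 took the third place at 57.9 CPM per kb through CKO 2, with a range that overlapped Sqstm1 at 51.7 CPM per kb. With CKO 1 and CKO 3 alone Sqstm1 held the third place at 47.0 and Nqo1 the fourth at 31.3 CPM per kb, whose range overlapped that of Nfe2l2. In all 3 libraries labelled CKO the ranges of Nfe2l2 and Srxn1, Srxn1 and Txnrd1, and Gsr and Gclc also overlapped, each through CKO 2.

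The pattern over the 6 libraries was compared with that of 2884 genes that averaged at least 50 CPM, by the root mean square difference of log2(CPM + 1) centred on each gene's mean. Closest to Hmox1 were Cyr61 (0.156), a matricellular protein gene, Cdkn1a (0.232), which encodes the cell cycle inhibitor p21, and Psrc1 (0.245), of a microtubule-binding protein. Cyr61 stood at 304, 289.7 and 168 CPM under WT and 908, 1161 and 886 CPM under CKO. Like Hmox1, it was lowest in WT 3 and highest in CKO 2. Cdkn1a and Psrc1 were also lowest in WT 3. Among the libraries labelled CKO, however, both were lowest in CKO 2, at 1452 and 108 CPM. Closest to Prdx1 were Lgals1 (0.101), which encodes galectin 1, Stip1 (0.104), a co-chaperone, and Cct3 (0.109), a subunit of a cytosolic chaperonin. The same measure, applied after the values were seen, placed Dnajc3 (0.259), Hsp90b1 (0.274) and Id2 (0.276) nearest to Txnrd1. Dnajc3, a co-chaperone of the endoplasmic reticulum, stood at 79.7, 66.0 and 79.4 CPM under WT and at 71.5, 481 and 68.5 CPM under CKO. Its excess in CKO 2 was thus larger than that of Txnrd1. Nearest to Nqo1 were Akr1b3 (0.295), Id1 (0.300) and Txnrd1 (0.317), and nearest to Srxn1 were Ncl (0.129), Dnajb9 (0.157) and Id2 (0.187). Txnrd1 and Dnajb9 reached 50 CPM only through CKO 2. With that limit on the other 5 libraries, added after the values were seen, 2869 genes were left, the 3 nearest to Txnrd1 were as before, and Lmna took their places for Nqo1 (0.319) and Srxn1 (0.213).

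The other genes of the pathway were taken from 7 lists by role, with 130 genes, of which 125 had a row and 111 were tested. These lists, too, were written with earlier results of these data known. Of the 111 genes, 15 rose and 4 fell (13.5% and 3.6%, beside 3.18% and 2.6% of all genes), and the median log2 fold change of the 111 was 0.12. edgeR called 16 higher and 3 lower of the 96 it tested (16.7% and 3.12%, beside 4.85% and 4.71% of all genes), and DESeq2 15 and 3 of 104 (14.4% and 2.88%, beside 3.21% and 2.81%). Without overlap between groups, 31 were higher and 17 lower (27.9% and 15.3%, beside 14.5% and 13.2% of all genes). The counts moved with single libraries, as did those over all genes. Without CKO 2 they were 24 higher and 6 lower (beside 5.74% and 5.03% of all genes), without WT 1 they were 8 and 1 (1.13% and 0.666%), without WT 2 also 8 and 1 (1.1% and 0.65%), without WT 3 they were 11 and 2 (2.66% and 1.82%), without CKO 1 they were 11 and 1 (1.09% and 1.03%), and without CKO 3 they were 8 and 2 (1.01% and 0.886%). Passing with each library left out in turn were Ftl1, Fth1, Gpx1, Gss, Ptgr1, Ephx1, Esd, Sod3 and Nfe2l1. The remaining 10 named genes lost their call without at least 1 library, as given with each group. The limma counts of each group below stand beside the same shares of all genes, 3.18% higher and 2.6% lower.

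**Figure D4:**
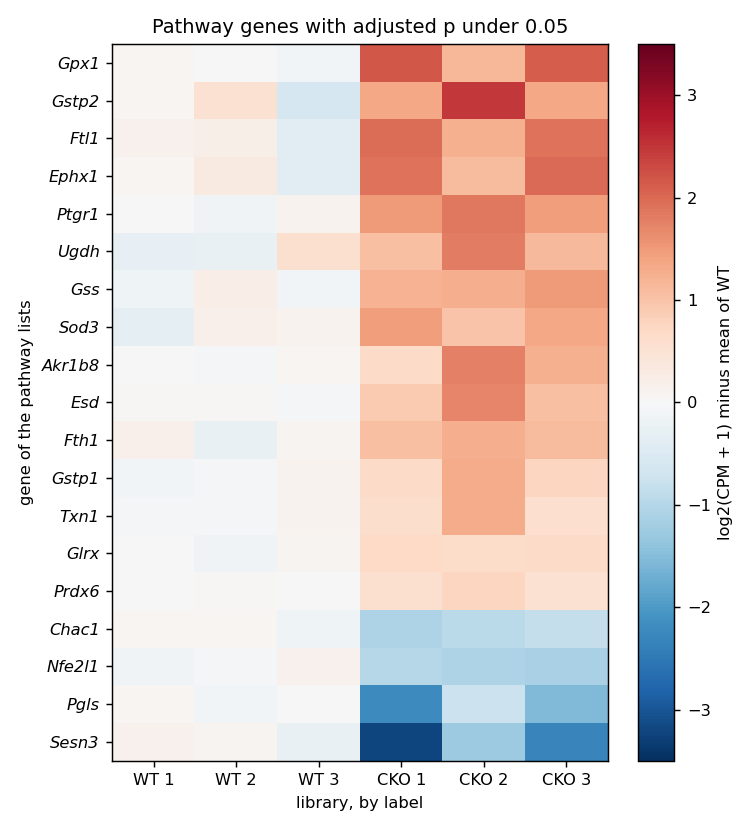
Colour gives log2(CPM + 1) minus the mean of the libraries labelled WT, for the 19 genes of the pathway lists that passed (rows, ordered by log2 fold change) in each library (columns). The 15 upper genes are red in all 3 libraries labelled CKO and the 4 lower genes blue, and CKO 2 is paler than CKO 1 and CKO 3 for Gpx1, Ftl1 and Ephx1 and darker for Gstp2, Ugdh, Esd and Txn1.

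Among the genes that control Nrf2, 7 were tested, 0 rose (limma, also 0 at an unadjusted p under 0.05, and 0 with edgeR and DESeq2) and 1 fell. The gene that fell was Nfe2l1, which encodes Nrf1, a relative of Nrf2 that drives proteasome genes. It stood at 218, 231 and 265 CPM under WT and 118, 112 and 107 CPM under CKO, with a log2 fold change of -1.08, adjusted p = 0.00466. All libraries labelled CKO were below all labelled WT by a similar amount. Of genes outside the naming rule, chosen after their values were seen, Keap1, the sensor of the pathway, was low at 3.62, 6.75 and 4.22 CPM under WT and 4.13, 2.17 and 4.33 CPM under CKO, with overlap. Mafk, a small Maf partner of Nrf2, stood at 24.5 CPM in CKO 2 and at 6.75 to 11.3 CPM in the other libraries. Bach2 and Nfe2l3 were not analysed here.

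Of 37 genes of glutathione synthesis and use, 5 rose and 1 fell, while the ligase subunits above did not pass. Gss, glutathione synthetase, stood at 30.4, 40.5 and 32.1 CPM under WT and 80.5, 83.0 and 97.9 CPM under CKO, a rise of 1.32, adjusted p = 0.00532. Gpx1, a glutathione peroxidase that removes hydrogen peroxide, stood at 328, 314 and 293 CPM under WT and 1408, 694 and 1355 CPM under CKO, a rise of 1.81, adjusted p = 0.0033. Here CKO 2 lay between the other libraries of its label and WT, the reverse of its place in Txnrd1 and Nqo1. Gstp1, a glutathione transferase, rose from 664, 687 and 771 CPM to 1129, 1735 and 1184 CPM in libraries 1, 2 and 3 of each label, by 0.91, adjusted p = 0.019, and did not pass without WT 1, WT 2 or CKO 3 (adjusted p = 0.0987, 0.0927 and 0.056). Gstp2 rose by 1.73, adjusted p = 0.0376, but is nearly identical to Gstp1, so that reads may be shared, and it passed with none of the 6 libraries left out (adjusted p = 0.0544 without CKO 2). Glrx, glutaredoxin, rose by 0.68, adjusted p = 0.0359, and when 1 library was left out it passed without WT 3 and without CKO 2 (adjusted p = 0.124 to 0.147 without the others), and it did not pass with DESeq2 (adjusted p = 0.0762). The gene that fell, Chac1, encodes an enzyme that degrades glutathione. It stood at 122, 123 and 105 CPM under WT and 54.3, 59.9 and 65.0 CPM under CKO, a difference of -0.95, adjusted p = 0.013, with adjusted p = 0.0668 to 0.0793 without WT 1, WT 2 or CKO 1.

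Of 18 genes of the thioredoxin and peroxiredoxin system, 2 rose and 1 fell with limma, where edgeR and DESeq2 called 2 higher and 0 lower. Txn1, thioredoxin itself, stood at 381, 377 and 427 CPM under WT and 599, 971 and 594 CPM under CKO, a rise of 0.83, adjusted p = 0.0382. CKO 2 was the highest, as for its reductase Txnrd1, but CKO 1 and CKO 3 were also above every library labelled WT. Prdx6, a peroxiredoxin with a single active cysteine, rose by 0.62, adjusted p = 0.035. Sesn3, a sestrin, was the gene that fell (limma, adjusted p = 0.0355), from 9.42, 9.01 and 6.76 CPM to 0, 2.89 and 0.867 CPM. Its libraries labelled CKO held 0 to 4 reads, so no fold is given, and it did not pass with DESeq2 (adjusted p = 0.0817) and was not tested by edgeR. These 3 genes passed without CKO 2 and with no other library left out (adjusted p = 0.0553 to 0.147).

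Of 22 genes of NADPH supply and detoxification, 5 rose and 1 fell. Ephx1, microsomal epoxide hydrolase, stood at 107, 125 and 77.7 CPM under WT and 382, 219 and 401 CPM under CKO, a rise of 1.66, adjusted p = 0.00578. Ugdh, which makes UDP-glucuronate for glucuronidation and for the glycosaminoglycans of cartilage, stood at 212, 215 and 383 CPM under WT and 537, 900.1 and 568 CPM under CKO, a rise of 1.32, adjusted p = 0.0187. The former had its smallest excess in CKO 2 and the latter its largest, and Ugdh did not pass without WT 1, WT 2 or CKO 3 (adjusted p = 0.101, 0.0984 and 0.0553). Ptgr1, which reduces reactive alkenals, rose by 1.6, adjusted p = 0.00505, and Esd, which hydrolyses the glutathione adduct of formaldehyde, by 1.22, adjusted p = 0.00845. Esd has 9 near-identical copies in the annotation, none with a row. Akr1b8, an aldo-keto reductase, rose by 1.23, adjusted p = 0.0397, and likewise passed without CKO 1 and without CKO 2 (adjusted p = 0.0703 to 0.135 without the others). Pgls, of the pentose phosphate pathway that supplies NADPH, fell by 1.5 on the log2 scale (adjusted p = 0.0212), from 183, 163 and 174 CPM to 36.4, 102 and 58.9 CPM, and passed without CKO 2 but not without any other library (adjusted p = 0.0508 to 0.101). Fam129c holds a stretch nearly identical to Pgls. Cyp2a5 was not analysed here.

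In the list of haem and ferritin genes, 2 of 7 rose and 0 fell (limma, also 0 at an unadjusted p under 0.05, and 0 with edgeR and DESeq2). Both encode ferritin, which stores the iron that haem oxygenase frees. Ftl1, the light chain, stood at 1012, 1033 and 705 CPM under WT and 3498, 2144 and 3357 CPM under CKO, a rise of 1.70, adjusted p = 0.00279. Fth1, the heavy chain, stood at 712, 531 and 671 CPM and 1305, 1542 and 1365 CPM in the same order, a rise of 1.15, adjusted p = 0.00365. The groups overlapped for neither gene, although CKO 2 was the lowest of its label for Ftl1 and the highest for Fth1. Ftl1 has 8 near-identical copies in the annotation, 1 of them with a row (Ftl1-ps1), so its level is uncertain.

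Among 5 genes of superoxide and hydrogen peroxide metabolism, 1 rose and 0 fell (limma, also 0 at an unadjusted p under 0.05, and 0 with edgeR and DESeq2). Sod3, the extracellular superoxide dismutase, stood at 47.1, 67.5 and 65.0 CPM under WT and 166, 119 and 153 CPM under CKO, a rise of 1.27, adjusted p = 0.00771. The 3 values under CKO were all above those under WT, with CKO 2 the lowest of them. Ncf1 and Duox2 were not analysed here. Among 15 autophagy receptors and partners, the family of Sqstm1, limma called 0 higher and 0 lower. At an unadjusted p under 0.05 limma had 3 higher and 1 lower, beside 11.2% and 10.1% of all genes. edgeR and DESeq2 called 0 in either direction. Without CKO 2, 4 of these 15 genes were higher (Map1lc3a, Map1lc3b, Gabarap and Atg7) and 0 lower, beside 5.74% and 5.03% of all genes. Map1lc3b, which encodes a protein of the autophagosome membrane that Sqstm1 binds, stood at 463, 488 and 498 CPM under WT and 812, 546 and 804 CPM under CKO. Its difference was 0.55, adjusted p = 0.0978, and 0.74 (adjusted p = 0.00326) without CKO 2.

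Markers of 8 cell types were read in the same libraries, because the members are made by many cell types. Their part in the results was not tested. All 17 chondrocyte markers had a row, 11 of the 16 tested fell and 0 rose (9 to 12 and 0 with a library left out), and their sum was 26864, 28061 and 34574 CPM under WT and 6756, 7202 and 6652 CPM under CKO. The most abundant by its mean over 6 libraries was Cnmd, at 9498, 9533 and 9818 CPM and 1804, 1042 and 1799 CPM, and Ihh alone had at most 3 reads in every library. Cnmd led in each library except CKO 2, where Col2a1 led at 1950 CPM. Chondrocyte markers were thus present in every library, and their sum was lower in all 3 labelled CKO. Single markers were less alike, with CKO 2 at 3.69 times the mean of CKO 1 and CKO 3 for Col9a3 but 0.578 for Cnmd, and Sox9, Sox5, Sox6, Hapln1 and Col10a1 overlapped WT (genes chosen after their values were seen).

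Of 19 macrophage and osteoclast markers 15 had a row and summed to 169.6, 169.6 and 412 CPM under WT and 316, 355 and 329 CPM under CKO. The largest mean was that of Lyz2, through WT 3 at 270.3 CPM, while Ctsk led in WT 1, WT 2 and CKO 2. Cd68, a lysosomal protein of macrophages, rose from 8.70, 6.75 and 11.8 CPM to 76.3, 46.9 and 76.3 CPM and was the 1 marker of this list that passed, where 4 did without WT 3 (Cd68, Cd14, Lyz2 and Acp5). Cd68 was highest of its label in WT 3 and lowest in CKO 2. Of the other markers, Adgre1, Csf1r, Cd14, C1qb, C1qc, Tyrobp, Fcer1g, Ctsk and Ptprc were highest in CKO 2, as Hmox1 was. They stood there at 0.722 to 20.2 CPM, apart from Ctsk at 108 CPM. Lyz2, Acp5, Mmp9, Mrc1 and C1qa were not highest in CKO 2. This comparison was made after the values were seen, and no link to Hmox1 was tested. Mrc1, C1qa and Ptprc had at most 3 reads in every library. Of 12 erythroid markers 7 had a row, with sums of 15.2, 18.0 and 20.3 CPM and 43.3, 65.7 and 44.2 CPM, most of it Tfrc, the transferrin receptor that many cells make, which rose from 13.8, 12 and 19.4 CPM to 41.3, 36.8 and 36.4 CPM (adjusted p = 0.017) but did not pass without WT 1, WT 2, CKO 1 or CKO 3 (adjusted p = 0.0717 to 0.0808). Hbb-bs, Hbb-bt, Klf1 and Epor were at or under 3 reads in each library, and Hba-a2 stood at 28.1 CPM in CKO 2 and at most 2.60 CPM elsewhere.

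Markers of skeletal muscle, all 10 with a row, summed to 62.3, 36.8 and 169.8 CPM under WT and 105, 284 and 97.1 CPM under CKO. The largest mean was that of Myog, a regulator of muscle differentiation, through CKO 2 alone, at 5.07, 4.5 and 34.6 CPM and 15.1, 179 and 13 CPM. Without Myog the sums were 57.3, 32.3 and 135 CPM and 90.1, 105 and 84.1 CPM, and Mylpf led in WT 1, WT 2, WT 3 and CKO 1 and Tnnt3 in CKO 3, so most of the excess in CKO 2 was that of Myog. Myod1, Des and Actc1, chosen after their values were seen, were also highest in CKO 2, at 12.3, 20.9 and 3.61 CPM against at most 1.73, 9.63 and 1.73 CPM elsewhere, but Mylpf, Tnnt3, Ckm and Acta1 were not. Myh3 and Myh8 had at most 3 reads in every library. Osteoblast markers, 9 of 10 with a row, were lowest in CKO 2, with sums of 957, 1130.2 and 1467 CPM and 1643, 588 and 1718 CPM. Col1a2, with the largest mean over 6 libraries and the lead under WT, fell from 469.7, 586 and 759 CPM to 327, 212 and 309 CPM (adjusted p = 0.0191) but did not pass without WT 2 or CKO 3 (adjusted p = 0.0863 and 0.0594). It was the 1 marker of the list that passed, whereas without CKO 2 Bglap, Bglap2 and Ibsp were higher (adjusted p = 0.00323, 5.53e-04 and 1.68e-05). Ibsp, which encodes bone sialoprotein and led in CKO 1 and CKO 3, stood at 129, 82.5 and 109 CPM and 708, 83.0 and 808 CPM, near the level of WT in CKO 2 and high in CKO 1 and CKO 3. Gpx1, Ftl1 and Ephx1 were also lower in CKO 2 than in CKO 1 and CKO 3, and lay above every library labelled WT in all 3. Whether their levels are linked to those of osteoblast markers was not tested. Dmp1 and Phex had at most 3 reads in every library.

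The remaining lists were low. Endothelial markers, 9 of 10 with a row, summed to 9.42, 16.5 and 14.4 CPM under WT and 11, 17.3 and 19.9 CPM under CKO, led by Egfl7, and Pecam1, Cdh5, Emcn, Tek, Tie1, Flt1 and Vwf were at or under 3 reads in every library. Epidermal markers, 7 of 10 with a row, summed to 46.4, 42.0 and 21.1 CPM and 44.7, 58.5 and 47.7 CPM, led by Krt10, with Krt1, Krt15, Lor and Dsp at or under 3 reads. Of 8 neutrophil markers 2 had a row, with sums of 1.45, 0.750 and 1.69 CPM and 3.44, 5.77 and 1.73 CPM, all but 1 read of it from Camp, and S100a8 at or under 3 reads. Listed markers without a row were not analysed here.

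**Figure D5:**
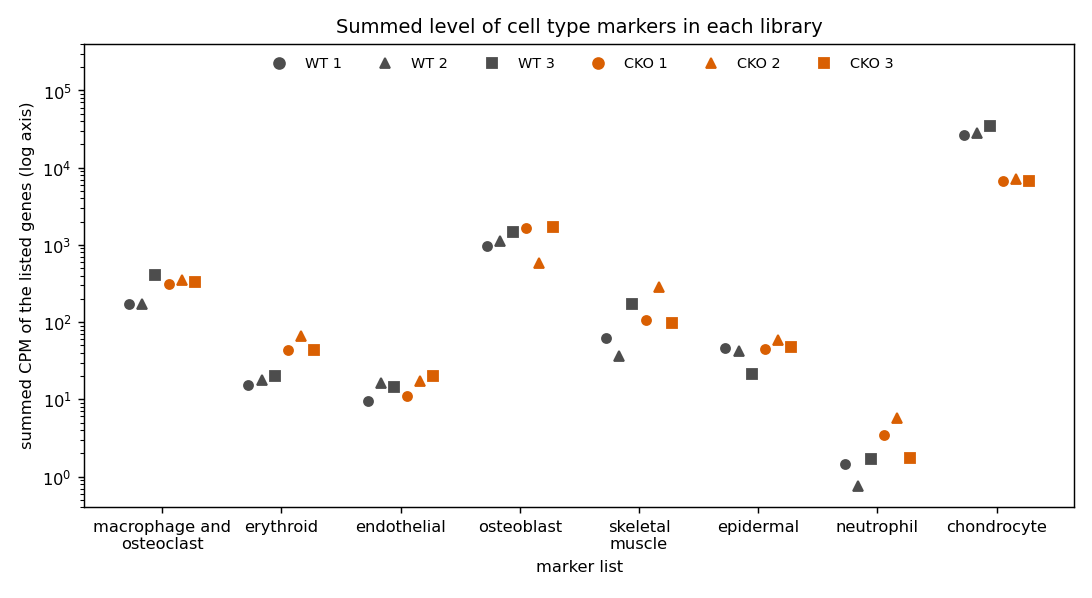
Summed CPM of the genes of each marker list in each library, on a log axis, with 1 point per library (grey for WT, orange for CKO, shapes for replicate numbers). Chondrocyte markers lie between 6652 and 7202 CPM in the libraries labelled CKO, below all labelled WT, and CKO 2 (triangle) is the lowest library for osteoblast markers at 588 CPM. Its 284 CPM for skeletal muscle include 179 CPM of Myog.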

How the data were processed

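mRNA of growth plate cartilage was measured in 6 libraries (3 WT, 3 CKO, matched by label). The authors deposited CPM per gene. Their processing notes name cutadapt 2.5, HISAT2 and featureCounts 1.6.3, and the genome build and annotation are not given in the sources used here. Every value was a whole multiple of 1 read (within 0.01 reads), so reads were recovered. Main values are from limma 3.58.1 (R 4.3.3) on log2(CPM + 1), with trend and Benjamini-Hochberg adjustment over genes averaging 1 CPM or more. edgeR 4.0.16 (quasi-likelihood) and DESeq2 1.42.0 used the recovered reads. The tests were tested on simulated data. Other alternatives were a pseudocount of 0.1, no filter or one at 10 CPM, TMM scaling, a replicate block and each library left out. Exact permutation tests were two-sided. Positions and exon lengths are from GENCODE M21 (GRCm38), where 15212 identifiers were found, copies from BLAST 2.17.0, promoters from RefSeq. Members and lists were chosen with earlier results of these data known. Named genes are all members, Hnrnpk, pathway genes with adjusted p under 0.05, the top marker of each list and markers at or under the floor, and the 3 genes most like each member that passed. Others were chosen after their values were seen.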

Additional observations from a re-analysis of the deposited data

How the results depend on the processing

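Under all 13 alternatives Hmox1 and Prdx1 rose and 0 other members passed. These were another pseudocount, no filter or a stricter filter, TMM scaling, edgeR, DESeq2, a replicate block and each library left out. The number of members past the study's criterion ranged from 1 to 4 with a library left out, and was 2 with TMM scaling or edgeR and 4 with DESeq2. The shares of all genes past this criterion under these alternatives are not given here. Pathway genes past the adjusted threshold ranged from 9 to 30, those higher from 8 to 24 and those lower from 1 to 6, with a library left out, while the genes higher in the whole table ranged from 123 to 692 and those lower from 79 to 606. The log2 fold change of Gsr ranged from -0.06 (without CKO 2, -0.057) to 0.57. The median of the 10 members ranged from 0.33 (without CKO 2) to 0.88 (without CKO 1) with a library left out. Over the 8 members that edgeR tested it was 0.90 with edgeR and 0.75 with limma. The cause of these shifts was not tested.

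The paper compared mice with their littermates, but the labels do not say which libraries share a litter. Deviations of WT and CKO libraries of 1 number from their group means correlated across genes at 0.0378, -0.131 and -0.103. Those of unlike numbers correlated at -0.12 to 0.164. With 3 libraries in a group, these values can neither show nor exclude a pairing by replicate number. With the replicate number as a block, 2 members were higher and 0 lower, adjusted p = 0.00146 for Hmox1 and adjusted p = 0.0142 for Prdx1, and 14 pathway genes passed (11 higher, 3 lower). Of all 12155 genes, 1.85% were higher and 1.32% lower with the block, beside 3.18% and 2.6% without it.

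Some genes had few reads. Gclm had 1 to 5 reads a library and its fitted fold depends on the pseudocount, and the 95% intervals of Gclc and Gsr, at 4 to 22 reads, spanned 0. edgeR's filter left Gclc and Gclm untested, DESeq2 gave Gclm no adjusted p, and the filter at 10 CPM removed all 3.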
